A study of Mus musculus with 8 samples.

Results

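The 4 neurosphere cultures in which Kat7 had been deleted did not lose its transcript to the same extent, and they are described here as pairs chosen by their Kat7 read counts. Deleted replicates 1 and 3 held 100 or more Kat7 reads and are called the residual cultures, and deleted replicates 2 and 4 held under 10 and are called the near-null cultures. The 4 deleted cultures are members of a series of 8, and the other 4, with Kat7 intact, give the reference level. The pairs were formed from a measured value, and nothing between them is tested. With 2 libraries a side, the 6 arrangements of an exact two-sided permutation test cannot give a p below 0.333. The only test is edgeR's quasi-likelihood test of the labelled genotypes, 4 deleted against 4 intact libraries, and "rose", "fell" and "changed" are used only for genes past a Benjamini-Hochberg adjusted p of 0.05 in it.

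KAT7, also known as HBO1, is a histone acetyltransferase of the MYST family. It works in complexes with the small subunits ING4, ING5 and MEAF6 and with 1 scaffold protein of the BRPF or JADE family, and the scaffold steers the enzyme towards particular histone tails. Acetylated histones at promoters and gene bodies accompany transcription, and KAT7 has also been linked to the licensing of replication origins.

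Each library came from neural stem and progenitor cells (NSPC) of 1 C57BL/6 fetus at E14.5, grown as floating spheres in proliferation medium. The deleted cultures were Kat7 lox/lox with 1 copy of Nes-Cre (NesCre T/+), and the intact cultures were Kat7 +/+ with the same NesCre T/+, so both carried Cre. This Cre is driven by Nestin regulatory sequence, which is active in neural precursors, and recombination depends on the cells in which it acted. Deleted replicates 3 and 4 were littermates although 1 is residual and the other near-null, intact replicates 1 and 2 were littermates too, and no litter held both genotypes, so that litter and genotype cannot be told apart.

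Library totals ran from 10687817 to 22444359 counts. The near-null libraries had 10687817 and 13115339 counts and were shallower than the residual libraries, which had 18280518 and 17256191, and values are therefore given as CPM, that is, counts scaled to a common library size. Mitochondrial genes took 29.9% of counts in deleted replicate 1 and 34.4% in deleted replicate 4, against 17.1% to 23.5% in the other 6 libraries, a split that crosses the pairs. Most of this share was 1 ribosomal RNA gene, mt-Rnr2, at 27.3% and 30.4% of counts in deleted replicates 1 and 4 and 15.4% to 21.7% in the other 6 libraries. In deleted replicate 2 the median gene of chromosome 4 lay 0.29 below the intact mean on the log2 scale and that of chromosome 2 lay 0.25 above it, while every other chromosome median in any library lay between -0.20 and 0.11. Nes and Vim, which encode intermediate filament proteins of neural precursors, were abundant in every library, with Nes at 831 CPM or more and Vim at 1105 CPM or more. In bulk RNA, fewer cells of a type and less RNA per cell cannot be told apart.

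Kat7 itself had 1204, 1289, 1656 and 2111 reads in intact replicates 1 to 4. It had 416 reads (exact Poisson 95% interval 377 to 458) in deleted replicate 1 and 253 (223 to 286) in deleted replicate 3. It had 4 reads (1.09 to 10.2) in deleted replicate 2 and 1 read (0.0253 to 5.57) in deleted replicate 4. On the CPM scale the intact libraries lay between 77.1 and 92.1, the residual ones at 26.4 and 13.9, and the near-null ones at 0.367 and 0.0870. Thus the residual cultures stood at 31.4% and 16.5% of the intact mean and the near-null cultures at 0.437% and 0.104%, and the libraries nearest the dividing line had 253 and 4 reads. In the test of genotype Kat7 had a log2 fold change of -3.02 ± 1.10 (SE, n = 4 against 4) with an edgeR adjusted p of 0.128, so the targeted gene did not pass although all 4 deleted libraries lay below all 4 intact ones. The intervals cover counting error only. Reads from exons that a deletion leaves in place would still be counted, and which exons were removed is not given in the sources used here.

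**Figure D1:**
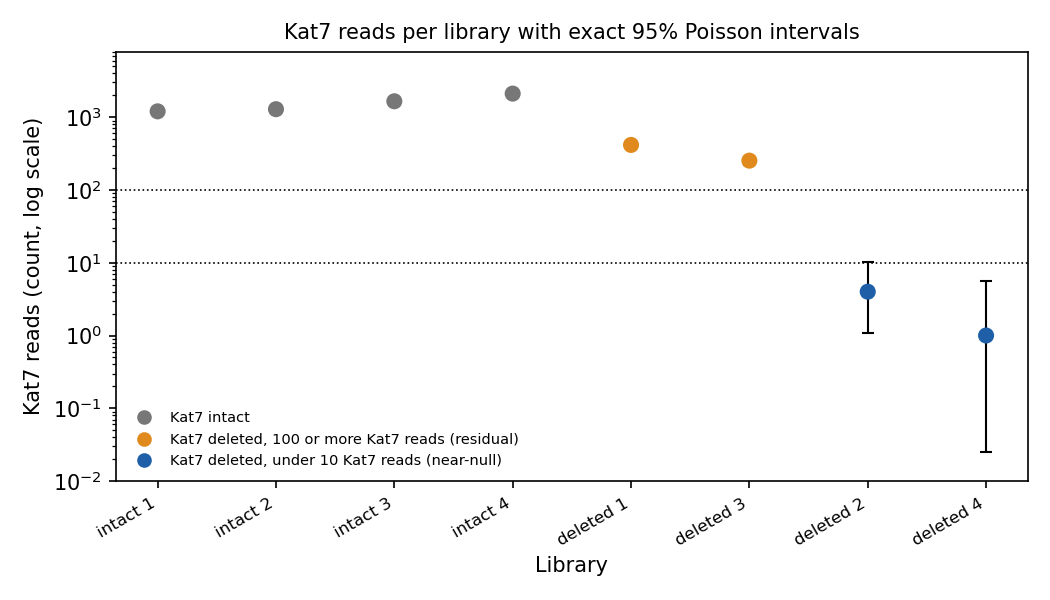
Kat7 reads (log axis) in each of the 8 libraries, with exact 95% Poisson intervals; dotted lines mark the limits of 100 and 10 reads that define the pairs. The intact libraries hold 1204 to 2111 reads, the residual libraries 416 and 253, and the near-null libraries 4 and 1.

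Most partners of KAT7 had a higher mean in the near-null pair than in the residual pair, with overlapping libraries. Over the 10 complex genes, Kat7 included, the near-null mean was the higher in 8, beside 6682 of all 13498 genes, with a median difference of 0.23 (log2). Kat7 and Meaf6 were the exceptions, and both near-null libraries lay above both residual ones in 1 gene, Jade2. Of the 9 other complex genes tested, 1 rose in the deleted cultures and the remaining 8 did not pass the test. That gene was Jade2, a scaffold, which stood at 3.89 to 4.35 CPM in the intact libraries, at 7.35 and 11.7 in the residual ones and at 22.4 and 16.8 in the near-null ones. None of these groups overlapped, and the log2 fold change was 1.79 ± 0.32 (SE) with an edgeR adjusted p of 0.0166 (0.0715 without intact replicate 2). Meaf6, the small subunit found in every form of the complex, had 18.7 to 21.2 CPM in intact, 14.96 and 16.2 in residual and 10.8 and 11.2 in near-null libraries, again without overlap, but at an adjusted p of 0.0725. Ing4 (log2 fold change 0.11), Brpf1 (-0.05) and Jade3 (0.03) had adjusted p-values of 0.556, 0.878 and 0.967.

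Across all 13498 genes tested, 1066 changed between genotypes (7.9%), of which 688 rose (5.1%) and 378 fell (2.8%). With total counts as the only scaling 309 rose and 364 fell. All 4 deleted libraries lay outside the range of the intact ones for 2681 genes (19.9%), above it for 10.7% and below it for 9.21%. Leaving out 1 intact library left 189 to 261 calls, and leaving out 1 deleted library left 755 (without deleted replicate 3) to 2182 (without deleted replicate 2). Pearson's r with the intact mean across genes, a description since genes are not independent replicates, was 0.926 and 0.953 for the residual libraries and 0.895 and 0.894 for the near-null ones. The residual pair alone stood at least 2-fold from the intact mean and outside the intact range for 806 genes above (5.97%) and 531 below (3.93%). The near-null pair did so for 784 genes above (5.81%) and 1107 below (8.2%). The counts above were thus alike, and the near-null pair had the longer list below.

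Direct comparison of the pairs had the same asymmetry. Both near-null libraries lay below both residual libraries, by at least 2-fold between pair means, for 1021 genes (7.56%), and above them for 384 (2.84%). Without deleted replicate 4 these counts were 2008 and 793, without deleted replicate 3 they were 1757 and 913, and without deleted replicate 2 they were 1163 and 867. A pair reduced to 1 library overlaps less by construction, and the order of the counts was the same. The median absolute log2 difference was 0.39 between the residual libraries and 0.46 between the near-null libraries. Between libraries of opposite pairs it was 0.32 for the littermates deleted 3 and deleted 4 and 0.37 for deleted 2 and deleted 3. It was 0.42 for deleted 1 and deleted 4 and 0.58 for deleted 1 and deleted 2. Only the last of these exceeded the difference between the near-null libraries.

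Genes graded lower stood highest in intact, intermediate in residual and lowest in near-null cultures. With all 3 groups of libraries apart there were 382 such genes (2.83%), and 211 of them (1.56%) had both steps of at least 1.5-fold. Without deleted replicate 1 there were 416 and without deleted replicate 4 there were 325. Kat7 is among the 211 by the choice of pairs. Of the 211, 89 also passed the test of genotype, beside 2.8% of all genes that fell. The class requires every deleted library to lie below the intact range, so this overlap is partly fixed by the choice. In 113 genes (0.837%) every deleted library followed the order of its Kat7 reads. These are part of the 382, where the order between the pairs is already fixed, so only the order within each pair is added. Grm3, which encodes a metabotropic glutamate receptor, had 12.8, 13.0, 13.9 and 30.5 CPM in the intact libraries, 3.80 and 0.220 in the residual ones and 0 in both near-null ones. Deleted replicate 1 thus held most of the remaining Grm3 reads, and the adjusted p of genotype was 0.0704. Erc2, a presynaptic scaffold gene, had 4.78 to 7.11 CPM in intact, 1.84 and 0.384 in residual and 0 in both near-null libraries (adjusted p = 0.0725).

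The same order was found in 4 further named genes, which also passed the test. Tspan13, a tetraspanin gene, had 42.4, 47.5, 38.9 and 37.8 CPM in intact libraries, 9.70 and 7.63 in residual ones and 2.57 and 0.870 in near-null ones. It fell, with a log2 fold change of -2.98 ± 0.59 (SE) and an edgeR adjusted p of 0.0253. Ptprt, a receptor tyrosine phosphatase gene, had 27.8 to 32.0 CPM in intact, 9.89 and 4.28 in residual and 0.643 and 2.78 in near-null libraries (log2 fold change -2.75 ± 0.61, adjusted p = 0.0344). Bmpr1b, a type I receptor for bone morphogenetic proteins, had 23.5 to 47.8 CPM in intact, 12.6 and 3.40 in residual and 0.643 and 3.22 in near-null libraries (-2.78 ± 0.70, adjusted p = 0.0477). The gap between its pairs was narrow, 3.40 against 3.22 CPM. Zfp711, a zinc finger gene, had 6.41 to 12.3 CPM in intact, 0.507 and 1.98 in residual and 0 and 0.261 in near-null libraries (-3.65 ± 0.82, adjusted p = 0.0351). Each of these 4 genes lost its call when intact replicate 2 was left out, with edgeR adjusted p-values of 0.0847 for Tspan13, 0.101 for Ptprt, 0.130 for Bmpr1b and 0.108 for Zfp711.

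**Figure D2:**
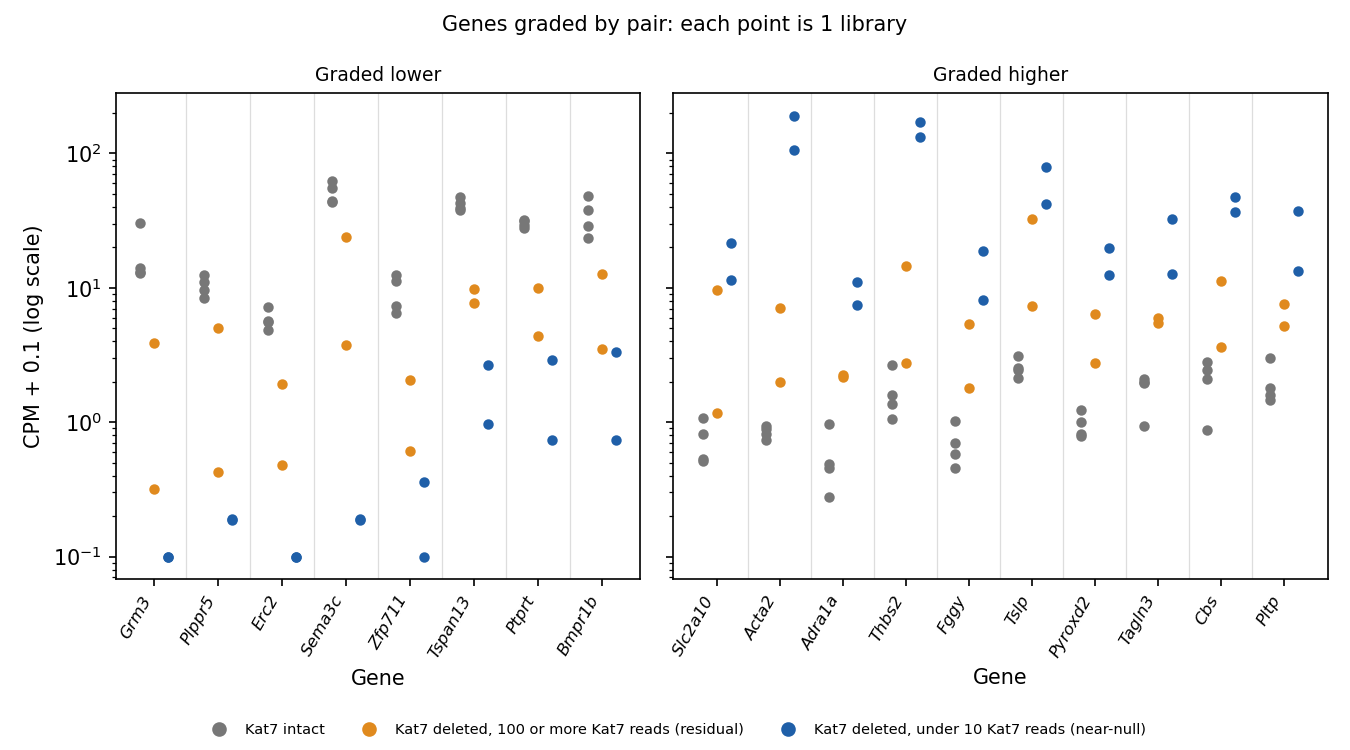
CPM plus 0.1 (log axis) of the named graded genes, 1 point per library, with intact libraries in grey, residual in orange and near-null in blue. In each gene the 3 colours do not overlap; Acta2 runs from 0.636 CPM in the lowest intact library to 191 CPM in a near-null one.

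A set of genes was expressed in the intact and residual cultures and close to absent in the near-null ones. Of 12085 genes with at least 1 CPM in every intact library, 45 (0.372%) also had at least 1 CPM in both residual libraries but under 0.3 CPM in both near-null libraries. The mirror pattern, under 0.3 CPM in both residual libraries alone, held for 1 gene (0.00827%), the unnamed model 3110039M20Rik. A further 11 genes (0.091%) were under 0.3 CPM in all 4 deleted libraries. All 11 fell in the test of genotype, beside 2.8% of all genes, which their choice favours. The floor was the same in CPM for each library, and 1 read was worth at most 0.0936 CPM of unscaled counts. Of the 45 genes, 37 lay outside chromosomes 2 and 4, and 0 of 45 passed edgeR's test of genotype, which pools the pairs (5 at an unadjusted p under 0.05, and 0 with DESeq2). Without deleted replicate 2 the count was 93, without deleted replicate 3 it was 71 and without deleted replicate 4 it was 121. Genes of this set are named after their values were seen.

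Sema3c, which encodes a secreted axon guidance protein, had the highest intact level of the 45. It stood at 55.0, 62.6, 44.3 and 43.0 CPM in intact libraries, at 3.68 and 23.9 in residual ones and at 0.0918 and 0.0870 in near-null ones, which is 1 read in each of the near-null libraries. Its promoter window is shown because it is rich in CG pairs, as CpG island promoters are. From RefSeq on GRCm38.p6, the 250 bases before the annotated start, chr5:17574566-17574815 on the plus strand, hold 39 CG pairs (in capitals) and 78.4% G or C.
Sema3c: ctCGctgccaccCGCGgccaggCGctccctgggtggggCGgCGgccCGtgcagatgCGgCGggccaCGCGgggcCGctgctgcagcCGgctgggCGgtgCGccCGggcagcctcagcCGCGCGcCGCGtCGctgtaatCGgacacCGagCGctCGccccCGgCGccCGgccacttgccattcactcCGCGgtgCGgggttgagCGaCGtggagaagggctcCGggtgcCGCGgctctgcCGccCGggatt
Over the 38 of the 45 genes with a promoter in the table, the median G or C share of the 300-base window around the start was 62.3%. It was 61.3% over the 10293 tested genes with one, so the G or C share of the group lay close to that of all genes. The median count of CG pairs in the same window was lower in the group, 17 beside 21, so the CG-rich window of Sema3c does not stand for the set.

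Ptprd, a receptor tyrosine phosphatase gene of synapses, had 54.8, 34.9, 41.9 and 23.2 CPM in intact libraries, 154 and 32.9 in residual ones and 0.275 and 0.0870 in near-null ones. Pcsk5, a proprotein convertase gene, had 18.8 to 29.4 CPM in intact, 5.39 and 11.9 in residual and 0.0918 and 0.174 in near-null libraries. Flrt2, a ligand of teneurin and latrophilin signalling, had 13.4 to 15.4 CPM in intact, 8.05 and 4.28 in residual and 0.0918 and 0 in near-null libraries. In these genes each near-null library had at most 3 reads. Kit, the receptor for stem cell factor, had 7.14 to 12.4 CPM in intact, 4.82 and 1.65 in residual and 0.0918 and 0 in near-null libraries, and Cdh6, a cadherin gene, had 7.14 to 9.63, then 7.23 and 2.97, then 0 and 0.0870. The residual pair was on in every one of them, as the choice of the set requires, and in Ptprd its levels reached above the intact range.

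Genes that stood apart in the near-null cultures alone, with the residual pair between 80% and 125% of the intact mean, numbered 215 below (1.59%) and 89 above (0.659%). The reverse class, apart in the residual pair alone, numbered 38 below (0.282%) and 75 above (0.556%). The first class, 304 genes in all, held 730 without deleted replicate 4 and 500 without deleted replicate 2, and the second, 113 in all, held 554 without deleted replicate 3 and 194 without deleted replicate 4. In edgeR's test, which pools the pairs, 0 of either class passed: at an unadjusted p under 0.05 there were 45 of the 304 and 24 of the 113, and DESeq2 called 15 and 4. Igsf10, an immunoglobulin superfamily gene, had 10.05 to 17.9 CPM in intact, 16.4 and 9.55 in residual and 0 in both near-null libraries. Cdh11, a cadherin gene of migrating cells, had 25.3, 11.7, 26.2 and 11.5 CPM in intact libraries, 26.5 and 12.5 in residual ones and 0.551 and 0.348 in near-null ones. Masp1, a complement pathway protease gene, had 24.7 to 38.3 CPM in intact, 42.2 and 29.1 in residual and 0 and 4.09 in near-null libraries. For Igsf10 and Cdh11 the residual values lay inside or next to the intact range while no near-null value came near it. The definition of the class largely fixes this separation.

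Axon guidance, teneurin and latrophilin genes were mostly lower in the near-null cultures. Of 30 tested members, both near-null libraries lay below both residual libraries in 17 and above them in 2, beside 2549 (18.9%) and 2266 (16.8%) of all 13498 genes. The list's median difference from intact was -0.19 and -0.17 (log2) in the residual libraries and -2.09 and -1.59 in the near-null ones. In the test of genotype 4 of 30 fell, beside 2.8% of all genes, and 26 did not pass. Nrp2, a semaphorin and VEGF co-receptor gene, had 90.9, 48.3, 114 and 35.5 CPM in intact libraries, 130 and 129 in residual ones and 7.90 and 0.609 in near-null ones. Adgrl3, a latrophilin gene, had 48.7 to 70.7 CPM in intact, 131 and 58.3 in residual and 6.43 and 2.09 in near-null libraries. Neither gene had any overlap between the pairs, and the residual libraries lay within or above the intact range. Tenm3, a teneurin gene, did not follow the list: it stood at 24.6 to 53.6 CPM in intact and at 0.634, 1.76, 0.459 and 3.22 in deleted replicates 1, 3, 2 and 4, and it fell in both pairs (log2 fold change -4.62 ± 0.57, edgeR adjusted p = 0.00711).

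Synaptic and ion channel genes were ordered similarly. Of 26 tested members, 11 lay below in both near-null libraries and 2 above, with median differences from intact of 0.08 and -0.37 in residual and -1.27 and -1.14 in near-null libraries. The counts stand beside 18.9% of all genes below and 16.8% above. In the test of genotype 1 of 26 rose, beside 5.1% of all genes, and 25 did not pass. It was Kcnj10, a potassium channel gene of glia, with 0.239 to 1.03 CPM in intact, 5.58 and 6.92 in residual and 2.20 and 8.87 in near-null libraries (edgeR adjusted p = 0.0147, or 0.0626 without intact replicate 4). Gria4, an AMPA receptor subunit gene, had 102, 69.9, 126 and 79.8 CPM in intact libraries, 426 and 41.4 in residual ones and 0.643 and 0.870 in near-null ones. Gria2, the subunit gene that limits calcium entry through these receptors, had 171 to 348 CPM in intact, 242 and 64.2 in residual and 18.3 and 13.6 in near-null libraries. In Gria4, and in the GABA receptor gene Gabra2, deleted replicate 1 stood far above the other deleted libraries, at 426 and 30.8 CPM. Deleted replicate 3 alone stood at 41.4 and 2.47 CPM.

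Of the 19 genes of a neuronal marker list, 12 had enough reads to be tested and 7 did not. Among the latter, Stmn2, Neurod2 and Neurod6, genes of differentiating and mature neurons, had 0 or 1 read in every library. The 12 tested members summed to 1167 to 1222 CPM in intact, 1068 and 981 in residual and 1277 and 995 in near-null libraries, and most of each sum was Map2, a microtubule protein gene, at 778 CPM or more. The sums of the pairs thus overlapped. Both near-null libraries lay below both residual ones in 4 members and above in 1, beside 18.9% and 16.8% of all genes, and the medians from intact were -0.87 and -0.63 (log2) in deleted replicates 1 and 3 and -1.90 and -0.998 in deleted replicates 2 and 4. In the test of genotype 3 of 12 fell, beside 2.8% of all genes, and 9 did not pass. They were Neurod1, a neuronal differentiation factor gene (2.64 to 6.10 CPM in intact and at most 0.634 in deleted libraries, edgeR adjusted p = 0.0104), and Elavl3 and Elavl4, neuronal RNA binding protein genes (adjusted p = 0.0116 and 0.0444). Elavl4 had an adjusted p of 0.117 without intact replicate 4. Kcnj10 and these 3 genes are named after their values were seen.

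Many of the genes that separated the pairs are long. Among 403 tested genes spanning over 300 kb, 137 (34.0%) had the near-null pair at least 2-fold below the residual pair without overlap, and 13 (3.23%) had it above. The share below was 17.1% of 1461 genes of 100 to 300 kb, 7.34% of 3623 genes of 30 to 100 kb, 4.93% of 4120 genes of 10 to 30 kb and 4.33% of 3553 genes up to 10 kb. The share above lay between 2.45% and 3.63% in all 5 classes. The median intact level, before any correction for transcript length, was 14.1, 24.8, 34.0, 29.2 and 15.2 CPM from the shortest class to the longest, beside 22.7 CPM for all tested genes. Among genes over 300 kb with an intact mean of at least 5 CPM, the share below was also 34.0%. The other classes were not recounted in this way, and the part of expression level in these shares was not tested. Median differences from intact over 300 kb were 0.13 and -0.29 (log2) in deleted replicates 1 and 3 and -0.90 and -0.73 in deleted replicates 2 and 4, while the intact libraries lay between -0.08 and 0.09. The median span was 136 kb for the 45 genes off in the near-null pair, 93.7 kb for the 211 graded lower genes and 28.6 kb for the 109 graded higher genes, beside 23.1 kb for all tested genes. The span was looked at after the values were seen.

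**Figure D3:**
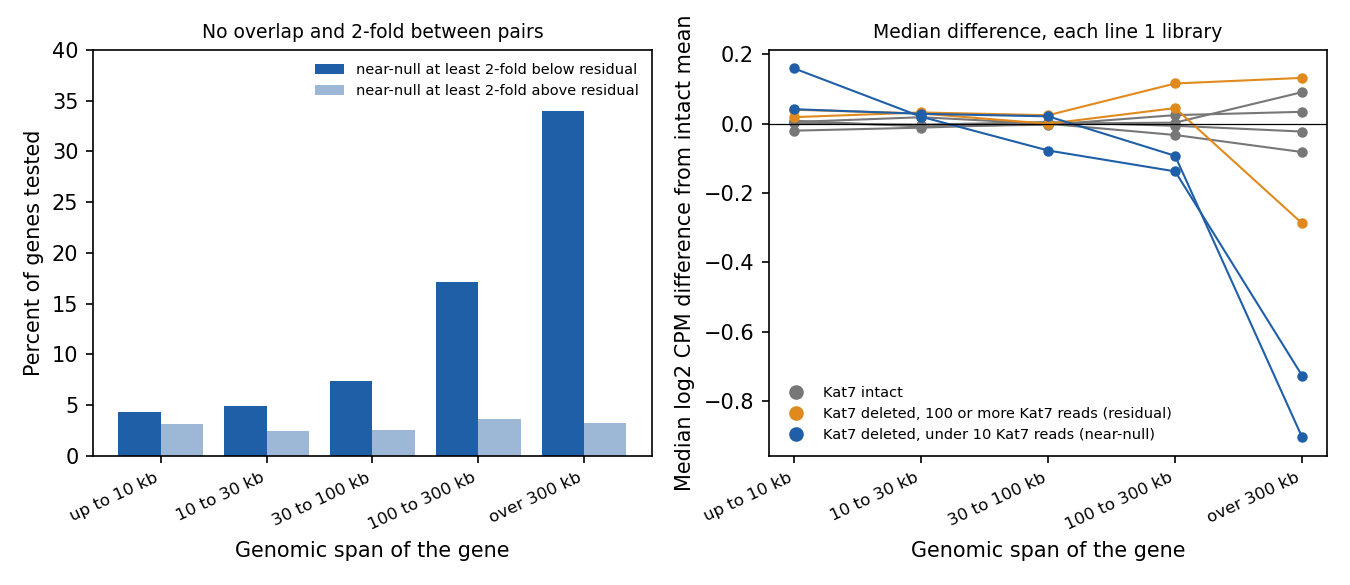
Left, percent of tested genes in 5 classes of genomic span with the near-null pair at least 2-fold below or above the residual pair without overlap; right, median log2 CPM difference from the intact mean in the same classes, 1 line per library. The share below climbs from 4.33% up to 10 kb to 34.0% over 300 kb, and in the longest class both near-null lines lie at -0.73 or lower.

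Genes graded higher stood lowest in intact and highest in near-null cultures. There were 322 (2.39%) without overlap and 109 (0.808%) with both steps of at least 1.5-fold. Of the 109, 87 passed the test of genotype, beside 5.1% of all genes that rose, an overlap again partly fixed by the choice. Without deleted replicate 1, 2 or 4 there were 199, 209 and 208. Every deleted library followed the reverse order of its Kat7 reads in 69 genes (0.511%), which are part of the 322 and add only the order within each pair. Acta2, which encodes smooth muscle actin, had 0.713, 0.837, 0.636 and 0.785 CPM in the intact libraries, 1.90 and 6.92 in the residual ones and 191 and 107 in the near-null ones. It rose, with a log2 fold change of 6.67 ± 1.45 (SE) and an edgeR adjusted p of 0.0322. Thbs2, a matricellular glycoprotein gene, had 0.960 to 2.57 CPM in intact, 2.66 and 14.3 in residual and 172 and 132 in near-null libraries, and it rose by 5.68 ± 1.24 (SE) on the log2 scale (edgeR adjusted p = 0.0329). Acta2 and Thbs2 were no longer called without deleted replicate 4 or any 1 of the intact libraries, with adjusted p-values of up to 0.110 and 0.109.

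Further graded higher genes had varied functions. Cbs, a transsulfuration enzyme gene, had 0.777 to 2.70 CPM in intact, 3.55 and 11.1 in residual and 36.7 and 47.6 in near-null libraries (log2 fold change 3.64 ± 0.80, SE, edgeR adjusted p = 0.0328). Slc2a10, a glucose transporter family gene on chromosome 2, had 0.419 to 0.978, then 1.08 and 9.50, then 21.5 and 11.4 CPM (4.07 ± 0.80, adjusted p = 0.0235). Pltp, a phospholipid transfer protein gene also on chromosome 2, had 1.38 to 2.89, then 5.07 and 7.47, then 37.0 and 13.2 CPM (3.06 ± 0.64, adjusted p = 0.0287). Pyroxd2 had 0.685 to 1.13, then 2.66 and 6.31, then 12.4 and 19.7 CPM (3.56 ± 0.60, adjusted p = 0.0142). Adra1a, an adrenergic receptor gene, had 0.179 to 0.872, then 2.16 and 2.09, then 7.34 and 10.9 CPM (3.57 ± 0.71, adjusted p = 0.0235). All 5 genes lost the call without intact replicate 2, at adjusted p-values between 0.0590 (Pyroxd2) and 0.108 (Cbs). The separation of Slc2a10 within the deleted cultures was narrow, 9.50 CPM in deleted replicate 3 against 11.4 in deleted replicate 4, and 88 of the 109 graded higher genes lay outside chromosomes 2 and 4.

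Genes of the contractile and actin apparatus lay, like Acta2, mostly higher in the near-null cultures. Of 18 tested members of this list, both near-null libraries lay above both residual libraries in 11 and below in 1. These counts stand beside 16.8% and 18.9% of all genes. In the test of genotype 3 rose, beside 5.1% of all genes, and 15 did not pass. The 3 that rose were Acta2, Vcl and Myh9, and Vcl and Myh9 had adjusted p-values of 0.142 and 0.147 without intact replicate 2. Flna, an actin crosslinking protein gene, had 385 to 582 CPM in intact, 444 and 668 in residual and 1542 and 1147 in near-null libraries (edgeR adjusted p = 0.149). Myl9, a regulatory myosin light chain gene on chromosome 2, had 1.02 to 1.52 CPM in intact, 0.951 and 3.13 in residual and 18.4 and 10.8 in near-null libraries (adjusted p = 0.0686). Tagln2 behaved otherwise: it had 23.2 to 50.5 CPM in intact, 0.254 and 4.17 in residual and 31.1 and 34.3 in near-null libraries, so that here the residual pair stood apart. Lamc1, a laminin chain gene, had 129 to 150 CPM in intact, 202 and 311 in residual and 530 and 386 in near-null libraries, and it rose (1.35 ± 0.26, SE, edgeR adjusted p = 0.0221, or 0.0857 without intact replicate 2).

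The promoters of Acta2 and Myl9 are shown because both genes stand together in the near-null cultures and both belong to a set with known promoter elements: the CArG box, bound by serum response factor, and GGAATG, a core bound by TEAD factors. Sequences are the 250 bases before the RefSeq start on GRCm38.p6, with the matched element in capitals, Acta2 from chr19:34255374-34255623 on the minus strand and Myl9 from chr2:156775214-156775463 on the plus strand.
Acta2: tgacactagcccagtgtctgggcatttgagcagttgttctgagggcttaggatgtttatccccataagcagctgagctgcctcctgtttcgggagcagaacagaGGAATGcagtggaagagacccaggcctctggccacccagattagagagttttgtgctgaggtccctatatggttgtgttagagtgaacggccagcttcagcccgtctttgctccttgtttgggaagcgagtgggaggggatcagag
Myl9: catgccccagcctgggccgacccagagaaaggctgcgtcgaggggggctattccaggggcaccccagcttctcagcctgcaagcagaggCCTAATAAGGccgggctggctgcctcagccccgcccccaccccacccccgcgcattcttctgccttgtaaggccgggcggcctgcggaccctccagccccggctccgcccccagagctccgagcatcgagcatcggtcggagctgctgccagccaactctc
The GGAATG match in Acta2 begins 146 bases before the start and the CArG match in Myl9 begins 161 bases before it. The CArG box was searched strictly, with only A or T between CC and GG. Looser forms with a C or G among those bases stay in lower case and are not counted. Such forms are ccctatatgg and ccttgtttgg in Acta2 and ccttgtaagg in Myl9, so the capitals do not show that Acta2 lacks a CArG box. Searched on both strands in 300-base windows, the CArG box was found in 5 of 17 contractile list genes with a promoter in the table and in 1.29% of the 10293 tested genes with one, and GGAATG in 8 of 17 and in 11.9%. A CArG box that ends in GG can share those bases with a GGAATG match. A match of letters describes the window and is not evidence of binding.

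Markers of other cells that could hold smooth muscle actin are given beside these values. Of 10 pericyte genes, 8 had too few reads to be tested, and Pdgfrb and Rgs5 had 0 to 3 reads in every library. The 2 tested were Notch3, a Notch receptor gene, and Cspg4, a proteoglycan gene also on the oligodendrocyte list. They summed to 63.7 to 117 CPM in intact, 114 and 170 in residual and 61.8 and 194 in near-null libraries. Notch3 rose, with 17.3 to 28.7 CPM in intact, 51.4 and 106 in residual and 42.7 and 156 in near-null libraries (edgeR adjusted p = 0.0322, or 0.108 without intact replicate 2), while Cspg4 had an adjusted p of 0.587. The pairs overlapped in the sum and in Notch3, which is named after its values were seen. Of smooth muscle genes, Cnn1 had 1 to 9 and Des 1 to 6, and Tagln stood at 0.342 to 1.13 CPM in intact, 0.951 and 0.714 in residual and 0.918 and 2.61 in near-null libraries. Of 15 fibroblast and meningeal genes, 10 had too few reads to be tested overall. Yet Col3a1 had 3633 reads and Dcn 916 in deleted replicate 2, against 6 or fewer in each of the other 7 libraries, while Col1a1 had 17 there and Lum 0. The summed level of the 5 tested members of that list was 37.2 to 61.6 CPM in intact, 83.1 and 80.2 in residual and 148 and 118 in near-null libraries. The members did not share 1 direction: the near-null mean was above the residual mean in 2 of 5, and the median difference between the pairs was -0.13 (log2). The list's medians from intact were 0.33 and 0.91 in deleted replicates 1 and 3 and 1.59 and 0.25 in deleted replicates 2 and 4. Prrx1, a mesenchymal homeobox gene, had 13.2 to 23.5 CPM in intact, 12.7 and 18.0 in residual and 54.3 and 82.3 in near-null libraries and Foxc1, a forkhead factor gene, 21.0 to 35.1, then 65.1 and 54.4, then 86.8 and 34.3. The microglial genes C1qa, C1qb and C1qc had 0 reads in every library. The part of other cell types in the graded genes was not tested.

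Genes that changed to a like extent in both deleted pairs form the other main class: they passed the test of genotype, both pairs stood at least 2-fold from the intact mean, and 1 pair mean lay between 80% and 125% of the other. There were 122 higher (0.904%) and 57 lower (0.422%). Without 1 intact library there were 45 to 69 higher and 33 to 41 lower, without deleted replicate 4 there were 79 higher, and without deleted replicate 1 there were 93 lower. Tmsb10, which encodes a thymosin that binds actin monomers, had 71.6, 81.9, 48.8 and 72.0 CPM in intact libraries, 13.8 and 16.4 in residual ones and 14.4 and 16.5 in near-null ones. The 4 deleted libraries were closer to each other than the intact ones were, and the gene fell by 2.16 ± 0.17 (SE) on the log2 scale (edgeR adjusted p = 0.00211). Like pair means are required for this class, so the likeness says nothing about dependence on Kat7 level. B3gat1, the enzyme gene for the HNK-1 carbohydrate, had 12.7 to 29.3 CPM in intact, 1.39 and 2.25 in residual and 1.38 and 2.52 in near-null libraries (-3.19 ± 0.37, adjusted p = 0.00511). Dscam, a homophilic adhesion gene, had 14.8 to 31.8, then 2.28 and 5.22, then 3.95 and 2.61 CPM (-2.53 ± 0.35, adjusted p = 0.00801). Ryr3, a calcium release channel gene, had 4.40 to 22.5, then 1.33 and 1.26, then 1.01 and 1.48 CPM (-3.12 ± 0.50, adjusted p = 0.0124). In each of these the residual and near-null libraries interleaved, which a choice by like pair means favours. The calls of Tmsb10, B3gat1, Dscam, Ryr3 and Tenm3 held in every one of 15 alternative fits.

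Neuronal cytoskeleton and polarity genes were among those that fell in both pairs. Of 20 tested members, 9 fell and 11 did not pass, beside 2.8% of all genes that fell. This list was chosen with earlier results of these data known, which can favour such a share, so the comparison supports nothing further. Tmsb10, Brsk2 and Crmp1 were equally changed. Brsk2, a kinase gene of neuronal polarity, had 23.6 to 30.7 CPM in intact, 9.64 and 8.90 in residual and 7.71 and 8.17 in near-null libraries (-1.63 on the log2 scale, edgeR adjusted p = 0.00307). Epb41l3, a membrane skeleton gene, had 6.46 to 18.4 CPM in intact and was at or under 0.380 CPM in all 4 deleted libraries (adjusted p = 0.00485), and Rundc3b had 4.50 to 7.24 CPM against at most 0.444 (adjusted p = 0.00375). Dpysl5, a collapsin response mediator gene, was not called but was graded, with 5.28 to 9.21 CPM in intact, 4.06 and 4.83 in residual and 0.734 and 0.174 in near-null libraries. The list thus held both kinds of pattern, with 11 members lower in both near-null than in both residual libraries and 1 higher. Of all genes 18.9% were lower and 16.8% higher in this way. Brsk2, Crmp1, Epb41l3 and Rundc3b were picked after their values were seen.

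**Figure D4:**
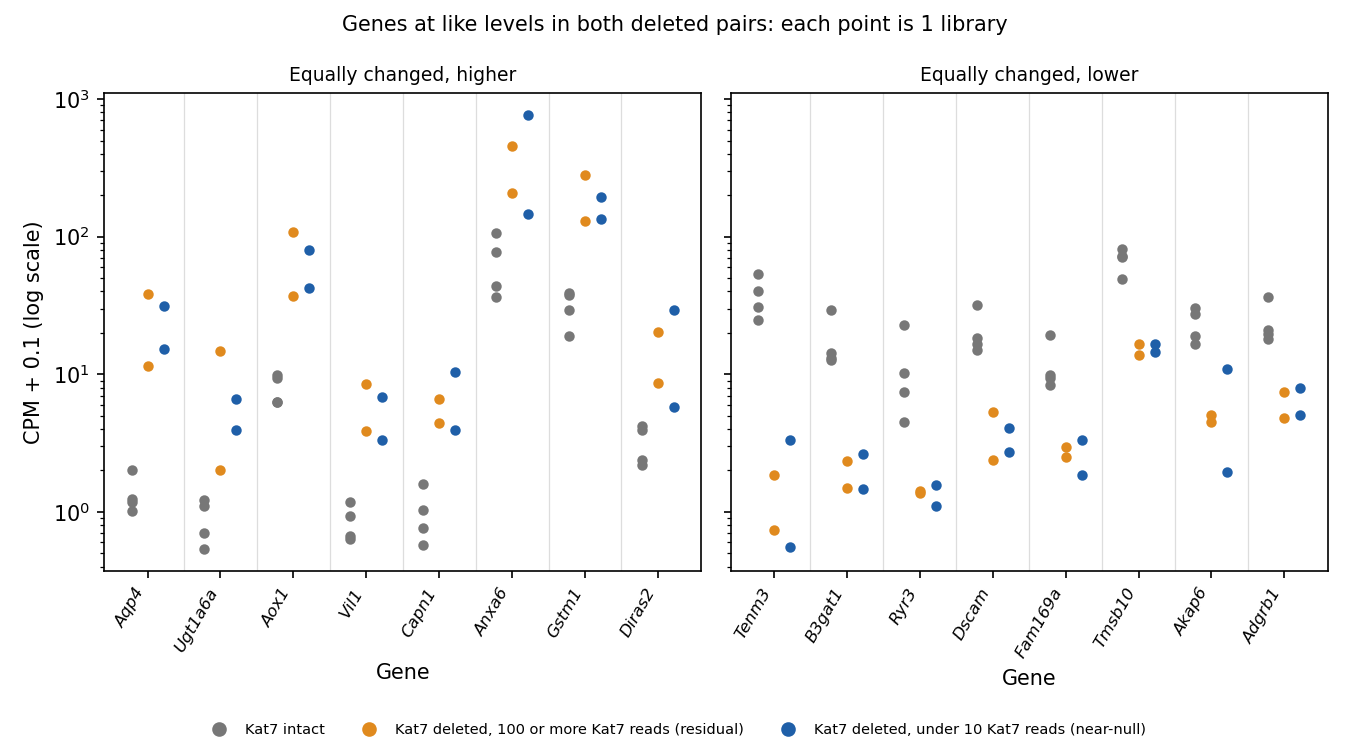
CPM plus 0.1 (log axis) of the 8 higher and 8 lower equally changed genes with the largest fitted changes, 1 point per library in the same colours. The residual (orange) and near-null (blue) points interleave and lie on the same side of the intact points (grey), as for Tmsb10 at 13.8 to 16.5 CPM in the deleted libraries.

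Among the equally changed higher genes, Aqp4, the water channel gene of astrocyte endfeet, had 0.916 to 1.91 CPM in intact, 38.1 and 11.4 in residual and 15.1 and 31.3 in near-null libraries, and it rose by 4.24 ± 0.47 (SE) on the log2 scale (edgeR adjusted p = 0.00483). The 2 higher values were in the libraries with the highest mitochondrial share, deleted replicates 1 and 4. Aox1, an aldehyde oxidase gene, had 6.16 to 9.84 CPM in intact, 108 and 36.8 in residual and 42.2 and 79.6 in near-null libraries (3.09 ± 0.38, adjusted p = 0.00692). Gstm1, a glutathione transferase gene with near-identical copies, had 18.97 to 38.9, then 279 and 131, then 134 and 193 CPM (2.57 ± 0.32, adjusted p = 0.00692). Aox1 and Gstm1 had the same order, deleted 1 above deleted 4 above deleted 2 above deleted 3, and the part of the mitochondrial share in it was not tested. Vil1, an actin bundling protein gene, had 0.538 to 1.08, then 3.80 and 8.35, then 3.21 and 6.78 CPM (2.85 ± 0.42, adjusted p = 0.00881).

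NRF2 is the transcription factor of the oxidative stress response, and its targets and the lysosomal genes lay at like levels in the pairs. Of 24 tested NRF2 list members, 7 rose and 1 fell, and of 28 lysosomal members 13 rose and 15 did not pass, beside 5.1% and 2.8% of all genes. The median difference between the pairs was 0.02 (log2) for the first list and -0.13 for the second. Slc7a11, the cystine transporter gene, had 40.6 to 53.9 CPM in intact, 328 and 243 in residual and 455 and 481 in near-null libraries, and it rose by 2.95 ± 0.24 (SE) on the log2 scale (edgeR adjusted p = 0.00211). It was graded, with the near-null pair highest. Hmox1, heme oxygenase, had 24.3 to 31.6 CPM in intact, 103 and 49.3 in residual and 74.3 and 129 in near-null libraries (1.69 ± 0.27, adjusted p = 0.0124, or 0.0615 without intact replicate 4). Srxn1, the sulfiredoxin gene on chromosome 2, chosen after its values were seen for its promoter, had 27.4 to 34.2, then 114 and 56.6, then 73.0 and 108 CPM, and it rose to a like extent in both pairs (1.47 ± 0.23, adjusted p = 0.0101, or 0.0519 without intact replicate 4).

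The Srxn1 promoter is shown as that of an equally changed gene whose window holds 2 copies of TGANTCA, the AP-1 type element (in capitals), beginning 102 and 45 bases before the RefSeq start. The sequence is from GRCm38.p6, chr2:152105274-152105523 on the plus strand.
Srxn1: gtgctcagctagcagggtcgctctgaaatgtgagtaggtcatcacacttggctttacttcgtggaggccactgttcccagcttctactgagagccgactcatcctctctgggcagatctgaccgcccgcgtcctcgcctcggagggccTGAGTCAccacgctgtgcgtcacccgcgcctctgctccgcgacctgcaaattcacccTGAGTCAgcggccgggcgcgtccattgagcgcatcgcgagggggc
On both strands of 300-base windows, TGANTCA was found in 3 of 18 NRF2 list genes with a promoter in the table and in 4.34% of all tested genes with one, and TGACNNNGC, the antioxidant response core, in 6 of 18 and in 14.6%. The 2 motifs can overlap.

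Astrocyte genes separated the pairs in the direction of the residual cultures. Of 21 tested members, both near-null libraries lay below both residual ones in 13 and above in 1, beside 18.9% and 16.8% of all genes. In the test of genotype 7 rose, beside 5.1% of all genes, and 14 did not pass. The list's medians differed between libraries of 1 pair as well: 2.43 and 1.16 (log2, from intact) in deleted replicates 1 and 3, and 0.08 and 1.35 in deleted replicates 2 and 4. Gfap, the intermediate filament gene of astrocytes, had 0.174 to 1.12 CPM in intact, 147 and 8.07 in residual and 1.38 and 1.91 in near-null libraries (edgeR adjusted p = 0.0605). S100b, a calcium binding protein gene of glia, had 3.95 to 14.9 CPM in intact, 111 and 51.2 in residual and 3.03 and 13.2 in near-null libraries. Slc1a2, a glutamate transporter gene, had 29.8 to 84.2, then 540 and 26.8, then 5.32 and 7.30 CPM, so that its high level was that of deleted replicate 1 alone. Gfap and S100b were above the intact range in both residual libraries, and in the near-null libraries S100b lay within or below it.

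**Figure D5:**
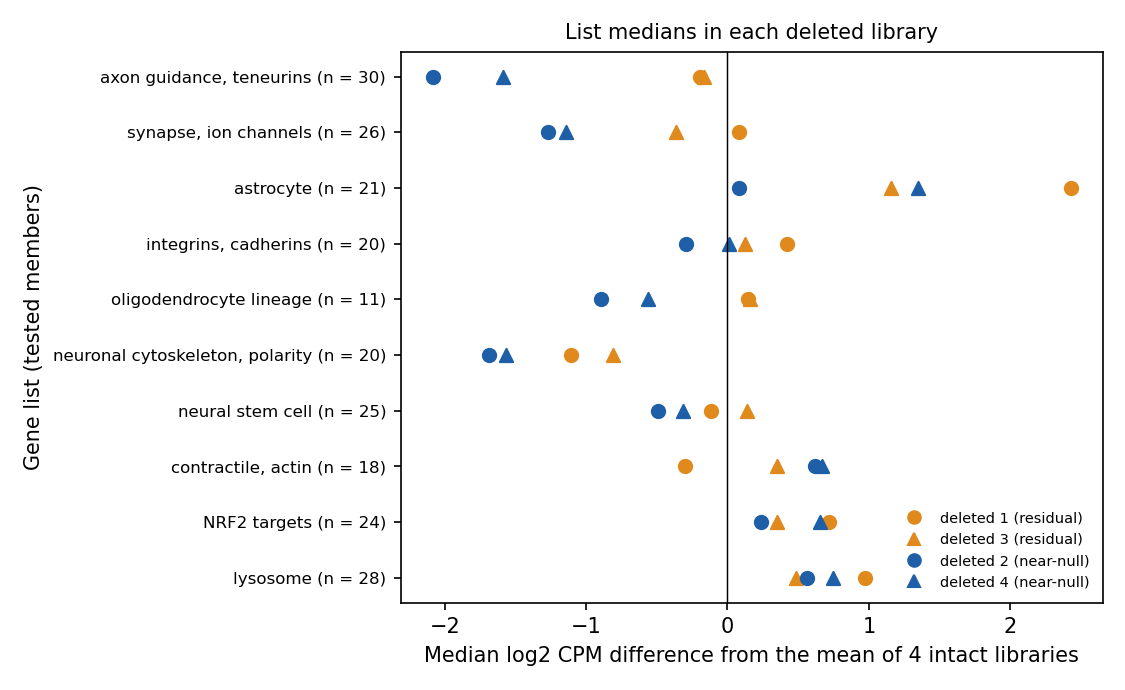
Median log2 CPM difference from the intact mean over the tested members of 10 gene lists, 1 point for each deleted library (orange residual, blue near-null). Guidance and synaptic lists show both near-null points left of both residual points, the contractile list shows the reverse (0.62 and 0.67 against -0.30 and 0.35), and for NRF2 and lysosome lists the 4 points interleave.

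A few regional and precursor regulators stood lower in the residual cultures than in the near-null ones. Sox1, a neural precursor transcription factor gene, had 12.3 to 31.3 CPM in intact, 0.190 and 1.98 in residual and 48.7 and 33.2 in near-null libraries. Sp8, a zinc finger gene of forebrain patterning, had 1.38 to 4.36 CPM in intact, 0.254 and 1.48 in residual and 102 and 52.8 in near-null libraries. Cdon, a hedgehog co-receptor gene, had 142 to 302 CPM in intact, 2.54 and 28.3 in residual and 96.6 and 66.8 in near-null libraries. Sox1 and Cdon lay below the intact range in both residual libraries, whereas 1 residual library was within it for Sp8. Both near-null libraries stood above the intact range for Sox1 and Sp8 and below it for Cdon. The edgeR adjusted p-values of Sox1, Sp8 and Cdon for genotype were 0.964, 0.129 and 0.134. The regional list as a whole lay the other way: of 18 tested members, 9 were lower and 3 higher in both near-null than in both residual libraries, beside 18.9% and 16.8% of all genes. So did the neural stem cell list, which holds Sox1 and Cdon. Of its 25 tested members, 10 were lower and 3 higher in both near-null libraries, with a median difference between the pairs of -0.15 (log2).

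Genes of the oligodendrocyte lineage were split. Olig1 and Olig2, its basic helix-loop-helix factor genes, stood lower in both near-null cultures. Olig1 had 732 to 1012 CPM in intact, 1002 and 981 in residual and 194 and 542 in near-null libraries, and Olig2 had 518 to 630, then 621 and 566, then 172 and 381. Neither passed the test of genotype, with edgeR adjusted p-values of 0.622 and 0.522, and in both deleted replicate 2 was the lowest library. Pdgfra, the growth factor receptor gene of oligodendrocyte progenitors, had the opposite order, with 6.16 to 13.3 CPM in intact, 1.33 and 3.57 in residual and 59.6 and 10.7 in near-null libraries (adjusted p = 0.478). Here deleted replicate 2 was the highest library. Of 11 tested members of the list, 7 were lower and 3 higher in both near-null than in both residual libraries, beside 18.9% and 16.8% of all genes. In the test of genotype 2 fell, beside 2.8% of all genes, and 9 did not pass. They were Ugt8a, a galactolipid enzyme gene of myelin (3.35 to 7.98 CPM in intact and at most 0.659 in deleted libraries, edgeR adjusted p = 0.0150, or 0.0546 without intact replicate 3), and Gpr17, a receptor gene of oligodendrocyte precursors (1.26 to 4.36 and at most 0.734 CPM, adjusted p = 0.0278, or 0.0869 without intact replicate 4). Both are named after their values were seen.

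Replication and mitotic genes mostly overlapped between the Kat7 pairs. Both near-null libraries lay above both residual ones in 1 of 44 replication and 0 of 30 mitotic genes, and below in 1 of each list. Of all genes 16.8% lay above and 18.9% below. The near-null mean was nevertheless the higher in 36 of the 44 and 21 of the 30, beside 6682 of all 13498 genes. Those median differences between the pairs were 0.14 and 0.10 (log2). The median difference from intact of 44 DNA replication genes was -0.78 and -0.15 (log2) in deleted replicates 1 and 3 and 0.01 and -0.67 in deleted replicates 2 and 4. For 30 mitotic genes the medians were -1.14, 0.04, -0.08 and -0.70 in the same order. The low libraries were deleted replicates 1 and 4, those with the highest mitochondrial share. In the test of genotype 1 of 44 replication genes fell, beside 2.8% of all genes. Of the 30 mitotic genes 0 passed edgeR's test, 5 had an unadjusted p under 0.05 (26.2% of all genes did) and DESeq2 called 2.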

How the data were processed

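RNA of 8 neurosphere cultures was sequenced as polyadenylated 100 bp single-end reads, per the labels' protocols. What the authors deposited is a table of raw read counts for 27179 Entrez gene identifiers, not normalized, and the submitters' processing notes name CASAVA 1.8.2, featureCounts and mm10. Aligner, featureCounts version and strand setting are not given in the sources used here, so overlapping genes cannot be told apart. RefSeq symbols (GRCm38.p6, the same assembly) matched 25275 identifiers and 1904 stayed without a symbol.

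The genotypes were compared in edgeR 4.0.16 (R 4.3.3) by filterByExpr (minimum count 10), TMM scaling and the quasi-likelihood F test, 4 deleted against 4 intact libraries, with no covariate. Pair means are means of log2 CPM with a prior count of 2. Fold changes are deleted minus intact. The labels name separate fetuses as replicates. Depth is given with the results, and 1 read limits what a value near 0 can show.

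Graded genes have 3 levels of libraries without overlap, with strong steps of 1.5-fold. The other classes are defined where they are used. Genes were named by rule: Kat7, the 10 graded genes each way with the largest smaller step, 8 equally changed each way by fold change, 6 of each pair-only class by pair difference (all at 5 CPM or more in 1 level), and from each of 37 lists up to 3 members by level and 4 by pair difference. The text gives a selection. The members, lists and rules were chosen with earlier results of these data known.

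Alternatives were other scalings and filters, DESeq2 1.42.0, the replicate number as a block, other class limits, and each library left out. Those for genes off in 1 pair, for 2-fold pair differences and for gene span were added after seeing the data, as was leaving out chromosomes 2 and 4. The procedures were tested on simulated data.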

Additional observations from a re-analysis of the deposited data

Results flagged for a closer look

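In groups of 4 libraries of the same genotype, a single library was marked when its gap to the next, as a share of the range, exceeded Dixon's 95% limit. Of 200 groups examined 13 were marked, and chance marks about 1 in 20. Of the 8 marks in deleted cultures, 7 were for deleted replicate 1, a residual library: Grm3 at 3.80 CPM, Plppr5 at 4.88, Gria4 at 426, Gabra2 at 30.8, Gfap at 147, Slc1a2 at 540 and Cadm2 at 52.2. The remaining one was Sema3c, at 23.9 CPM in deleted replicate 3. In each of these 8 genes the marked library was the highest. Several of them were named for the difference between the pairs, so the order of their other libraries is part of the choice. In intact cultures Grm3 (30.5 CPM) and B3gat1 (29.3) were highest in replicate 4 and Neurod1 (6.10) in replicate 2, and Tagln3 (0.837) and Sez6l (4.31) were lowest in replicate 2.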

How the results depend on the processing

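The number of genes called between genotypes was 1066, and it was 673 with total counts as the scaling, 2200 with DESeq2, 319 with the replicate number as a block, and 189 to 2182 with 1 library left out. Total counts placed the median gene at -0.11 (residual) and -0.14 (near-null) from intact on the log2 scale, 45.9% of their calls were higher against 64.5%, and 77 genes were equally changed and higher. The numbers do not pair the libraries: same-numbered deviations correlated at 0.0961 for replicate 1 and at 0.3311 at most, and 4 of 8 libraries correlated best with their own number. The block left 70 equally changed higher genes. With 1 library left out, graded lower genes numbered 220 to 416 and graded higher genes 121 to 209. Equally changed genes then numbered 33 to 93 lower and 45 to 180 higher, near-null-only genes 237 to 730 and residual-only genes 110 to 554. Genes with the near-null pair 2-fold below the residual pair then numbered 968 to 2008, those above 410 to 913, and genes off in the near-null pair only 44 to 121. A pair left with 1 library has no spread of its own, so these are counts with no test. Without a filter on low counts there were 477 near-null-only, 178 residual-only and 718 genes 2-fold above. Steps of 2-fold left 122 graded lower and 35 graded higher genes, and pair means within 1.5-fold gave 89 equally changed lower genes. Of 50 called genes named, 17 kept the call in all 15 alternatives, and 0 of 749 fold changes reversed. Of 1247 pair differences 0 reversed, but a reversal was counted only where the main difference was at least 2-fold. Sign changes of smaller pair differences, as in the equally changed genes, were not counted. The cause of these shifts was not tested. With 2 libraries a side, depths of 10687817 to 22444359 counts and Kat7 reads as the only basis of the pairs, culture and Kat7 level cannot be told apart, and among the deleted cultures only replicates 3 and 4 share a litter.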

Other observations

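Some further genes that stood apart in 1 or 2 deleted libraries are given as values. Dcx, a microtubule protein gene of migrating neuroblasts, had 101 CPM in deleted replicate 2 and at most 1.26 CPM in the other 7 libraries. In the residual cultures, Sez6l, a seizure-related membrane protein gene, had 136 and 37.1 CPM, against 10.9 and 5.74 in the near-null cultures and 4.31 to 9.91 in the intact ones. Deptor, an inhibitor gene of mTOR signalling, had 14.4 and 11.3 CPM in the residual cultures, 2.57 and 1.13 in the near-null ones and 0.785 to 3.62 in the intact ones.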
